A study of Mus musculus with 18 samples.

Results

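The retinas of normoglycemic mice that drank NACET were compared with those of untreated mice of the same genotype. The members were chosen by their labels alone: all 6 libraries labelled WT + NACET and all 3 labelled WT, 9 of the 18 libraries of the series, with every expressed gene, 16183 in all, in the test. WT mice were male C57BL/6J, the strain given for both groups. Treated mice received 50 mg/kg NACET each day, dissolved at 0.33 mg/mL in their water, from week 4 to week 24 of life, and the untreated group had no NACET over the same weeks. The remaining 9 libraries came from Akita mice, 4 untreated and 5 given NACET in the same way. Akita mice are heterozygous for a spontaneous Ins2 mutation that makes them diabetic. The question was what NACET changes in a retina that is not diabetic. No label says whether each library came from another animal, so the p-values measure the spread between these libraries only.

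NACET, the ethyl ester of N-acetylcysteine, crosses membranes more easily than its parent and releases cysteine inside cells, where cysteine limits the synthesis of glutathione. The transcription factor NRF2 (gene Nfe2l2) is held in the cytoplasm and degraded through KEAP1, whose reactive cysteines sense oxidants and thiols. Once free, NRF2 pairs with small MAF proteins on antioxidant response elements and turns on genes for glutathione synthesis, thioredoxins and detoxification. The retina needs these defences because its photoreceptors consume much oxygen and are exposed to light. Müller glia and astrocytes answer retinal stress with gliosis, marked by the intermediate filament GFAP.

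Between 11495596 and 16715418 reads per WT library and between 13629767 and 17482670 per WT + NACET library were assigned to genes (two-sided exact permutation p = 0.179 over 84 splits, where the smallest possible is 0.0119). The retinal markers were present, and the 6 rod photoreceptor markers summed to 88557 to 121510 CPM (reads scaled to the effective library size) in WT and to 110552 to 147474 CPM in WT + NACET. The share of uniquely aligned reads outside annotated exons was 17.1%, 17.0% and 14.9% in WT and 9.55% to 16.5% in WT + NACET, a mean of 16.3% ± 1.24 (SD, n = 3) against 12.7% ± 2.74 (SD, n = 6). This difference had an exact permutation p of 0.0476 and its part in the results was not tested. It was entered as a covariate in an alternative fit. One treated library stood apart. The 13 lens transcripts, led by the crystallins, summed to 26102 CPM in WT + NACET replicate 5, 5.24 to 72.2 CPM in the other treated libraries and 5.89 to 26.5 CPM in WT. The 11 markers of the pigment epithelium, the layer behind the photoreceptors, summed to 194, 1020 and 238 CPM in WT and to 711 to 1609 CPM in WT + NACET.

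Under NACET, 139 genes were upregulated (0.859% of those tested) and 101 downregulated (0.624%), together 240 DEGs or 1.48% of all genes (edgeR quasi-likelihood test, Benjamini-Hochberg adjusted p of at most 0.05). As the background for the gene lists, 3162 genes (19.5%) had an unadjusted p below 0.05, and DESeq2 called 705 of the 15327 genes it adjusted (4.60%). Most changes were small. The median change of the DEGs was 0.70 on the absolute log2 scale, and the median log2 fold change of all genes was −0.01. Of the DEGs, 205 were protein coding, 14 were long intergenic noncoding RNAs and 14 processed transcripts. In 232 DEGs no library of 1 group overlapped the other group, which held for 1857 of all genes tested (11.5%). A smaller set of 33 DEGs, 19 of them upregulated, was called in each of 18 alternative fits, while a further fit, edgeR on the 2 groups with the outside-exon covariate, called 27 DEGs of the main comparison. When the outside-exon share entered the fit, 61 genes were called, 56 of them DEGs of the main comparison in the same direction. Without WT replicate 1, WT replicate 2, WT + NACET replicate 3 or WT + NACET replicate 5 the total was 72, 77, 110 and 153.

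**Figure D1:**
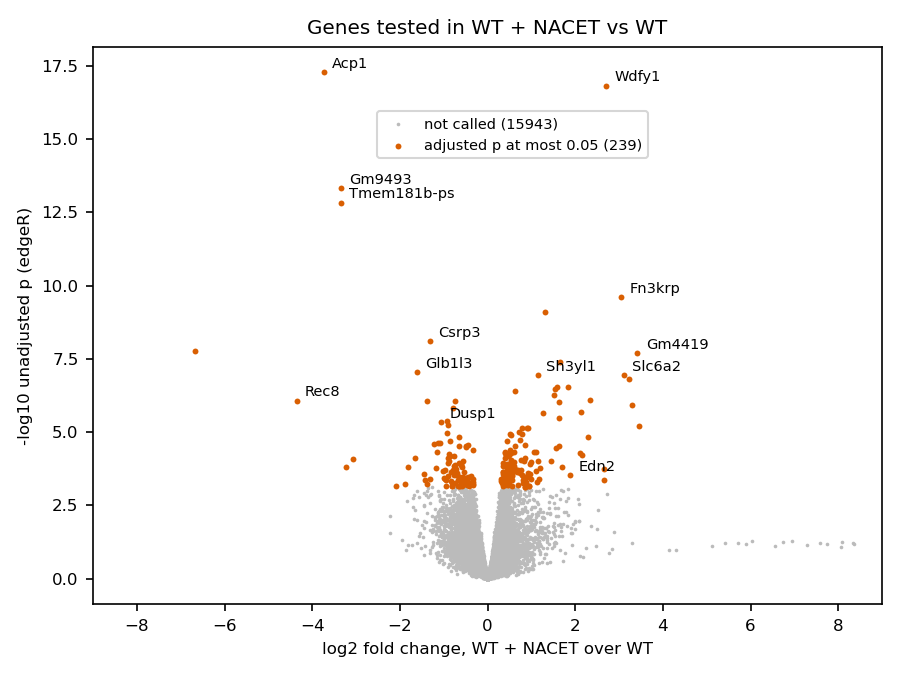
Each point is a gene of the comparison of WT + NACET with WT, with its log2 fold change on the horizontal axis and −log10 of its unadjusted edgeR p on the vertical axis. The 239 orange points are DEGs (1 gene is left out), Acp1 and Wdfy1 lie highest, and the grey points at the far right are mostly lens genes such as the crystallins, which were high in WT + NACET replicate 5 and were not called.

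The largest increases were in genes with unrelated roles. Wdfy1, a WD repeat protein of endosomes (mm9 chromosome 1, 79698837 to 79772718), had 15.4, 12.8 and 15.5 CPM in WT and 89.0 to 103 CPM in WT + NACET with a median of 94.6. The groups did not come near each other, and Wdfy1 rose by 2.71 ± 0.10 on the log2 scale (SE, edgeR adjusted p = 1.21e-13). Fn3krp, a kinase that helps to remove sugars bound to protein lysines (chromosome 11, 121282715 to 121292602), had 6.32, 6.48 and 6.62 CPM in WT and 29.2 to 70.7 CPM under NACET, median 60.2. It rose by 3.04 ± 0.25 on the log2 scale (adjusted p = 6.55e-07). Treated replicates 1 and 2, at 36.3 and 29.2 CPM, were the lowest of the treated libraries and still above every WT library. Both genes stayed near the WT level in every Akita library, treated or not, Wdfy1 at 12.4 to 17.0 CPM and Fn3krp at 5.53 to 8.23 CPM.

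Other genes rose from levels close to the limit of detection. Slc6a2, the noradrenaline transporter (chromosome 8, 95483978 to 95525566), had 4 reads in each WT library, 0.287, 0.320 and 0.241 CPM, and 1.76 to 3.19 CPM in WT + NACET. Slc6a2 rose by 3.11 ± 0.39 (adjusted p = 0.000131). Bcl3, an IκB family cofactor of NF-κB (chromosome 7, 20393811 to 20408119), had 3 to 4 reads per WT library, 0.215, 0.320 and 0.241 CPM, and 1.19 to 4.43 CPM under NACET. Bcl3 rose by 3.30 ± 0.49 (adjusted p = 0.000746) and was called in all 17 alternatives that tested it, as was Slc6a2. Gm4419, a long intergenic RNA of chromosome 12, rose by 3.42 ± 0.39 (adjusted p = 3.17e-05) from 0.144, 0.480 and 0.662 CPM to 3.04 to 6.44 CPM. Steap4, a metalloreductase of iron and copper uptake (chromosome 5, 7960472 to 7982213), had 1.80, 1.68 and 0.723 CPM in WT and a median of 6.27 CPM in WT + NACET. It rose by 2.15 ± 0.43 (adjusted p = 0.0137), although treated replicate 4, at 1.99 CPM, lay next to the WT libraries. Its call was lost without WT + NACET replicates 3, 5 and 6 (adjusted p = 0.0893).

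Some of the named increases have uncertain levels. Xlr3a and Xlr3b, near-identical genes of the X chromosome 95112 bases apart, rose by 2.30 ± 0.41 (SE, adjusted p = 0.00553) and by 2.34 ± 0.34 (adjusted p = 0.000592). Reads that match both copies equally well were not counted, and the NACET level of Xlr3b, 5.50 to 9.39 CPM, also overlapped that of Akita + NACET, 3.36 to 7.08 CPM. Gm10475, a transcript inside Reln on its other strand, rose by 3.22 ± 0.42 (adjusted p = 0.000171) from 0.503, 0.160 and 0.120 CPM to a median of 2.33 CPM. The counting ignored strand, so its reads cannot be told apart from those of unspliced Reln RNA. NR_045365, which the reference annotation does not place, rose by 2.13 ± 0.33 (adjusted p = 0.0012).

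Among the largest decreases, 3 were deep and uniform across the treated libraries. Acp1, the low molecular weight tyrosine phosphatase (chromosome 12, 31578191 to 31596477), had 40.1, 26.7 and 32.8 CPM in WT and 2.05 to 3.14 CPM in all 6 treated libraries. It fell by 3.74 on the log2 scale (SE 0.13, adjusted p = 8.55e-14), and the Akita libraries held 28.3 to 38.5 CPM with or without NACET. Gm9493 (chromosome 19, 23694232 to 23694810) had 35.9, 28.5 and 38.1 CPM in WT and 2.72 to 4.02 CPM under NACET, and fell by 3.35 (SE 0.18, adjusted p = 1.95e-10), counted with no regard to 1700028P14Rik on its other strand. Tmem181b-ps, annotated as a copy of the membrane protein gene Tmem181 (chromosome 17, 6439626 to 6489526), had 6.10, 5.28 and 5.78 CPM in WT and 0.475 to 0.607 CPM under NACET. It fell by 3.36 (SE 0.20, adjusted p = 4.74e-10), and as a copy it shares reads with its relatives, so its level is uncertain. In each of the 3 genes the treated libraries lay within a narrow band far below every other library of the series.

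Rec8, a cohesin subunit of meiosis (chromosome 14, 56236874 to 56244232), had 81, 66 and 83 reads in WT and 0 to 4 reads in 5 of the treated libraries. The sixth, WT + NACET replicate 3, had 17 reads or 1.29 CPM. Rec8 fell by 4.36 (SE 0.59, adjusted p = 0.000592), and without replicates 3, 5 and 6 the adjusted p was 2.05e-06. Glb1l3, a beta-galactosidase-like enzyme (chromosome 9, 26625538 to 26668408), fell by 1.62 (SE 0.19, adjusted p = 0.000124), from 74.3, 75.3 and 117 CPM to 24.0 to 39.8 CPM. The transcript 2410018L13Rik had 3.45, 3.04 and 2.35 CPM in WT and 0 to 1.19 CPM in WT + NACET. It fell by 3.07 (SE 0.61, adjusted p = 0.0161) and lost its call with the covariate (adjusted p = 0.172).

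The remaining large decreases were weaker. Slc7a3, a cationic amino acid transporter (chromosome X, 98274549 to 98281359), fell by 1.45 (SE 0.33, adjusted p = 0.0293) and had 4.95, 5.52 and 5.54 CPM in WT against 0.531 to 3.14 CPM under NACET. Adm, the vasodilator peptide adrenomedullin (chromosome 7, 117771175 to 117773331), fell by 1.43 (SE 0.34, adjusted p = 0.0362), from 2.87, 2.96 and 1.87 CPM to a median of 0.836 CPM. Rdh1, a retinol dehydrogenase that overlaps Rdh9, had 1.51, 2.88 and 2.23 CPM in WT and a median of 0.748 CPM under NACET (log2 fold change −1.38 ± 0.34, adjusted p = 0.0434). The noncoding 1700027L20Rik fell by 1.67 (SE 0.33, adjusted p = 0.0154). Each of these 4 genes lost its call with the covariate, with adjusted p from 0.0947 for Adm to 0.286 for Rdh1.

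**Figure D2:**
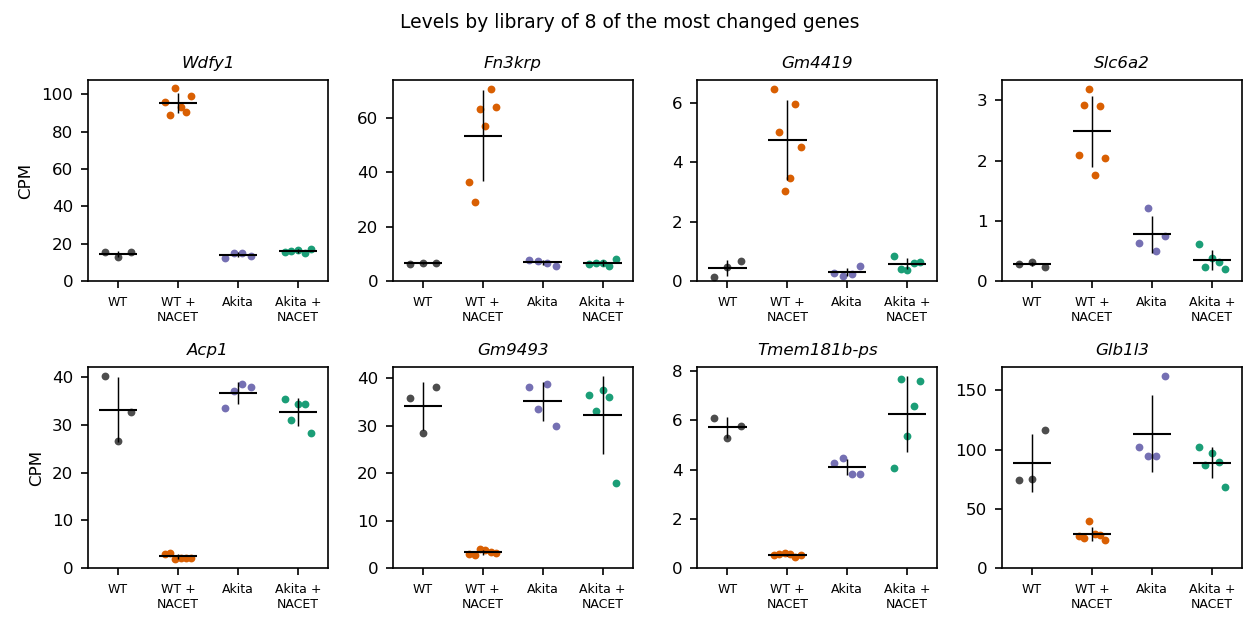
Levels in CPM (vertical axes, linear from 0) of 4 upregulated and 4 downregulated genes in each library of the 4 groups, with the mean as a horizontal line and the SD as a vertical line. In all 8 panels the 6 WT + NACET libraries stand apart from the WT libraries, for example Acp1 at 2.05 to 3.14 CPM against 26.7 to 40.1 CPM, and no Akita library lies within the range of WT + NACET.

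DEGs were then placed along the genome. Chromosome 12 had the highest share, 15 DEGs of 554 genes tested (2.71%), 5 of them changed by more than 4-fold. Among 267 windows of 10 Mb, neighbours on this chromosome had the highest shares, with 4 DEGs of 41 genes (9.76%) between 30 and 40 Mb and 3 of 31 (9.68%) between 20 and 30 Mb. In the first, Acp1 and Sh3yl1 stand head to head, 56 bases apart. Sh3yl1, a phosphoinositide-binding SH3 protein (chromosome 12, 31596533 to 31645027), had 41.4, 39.4 and 48.4 CPM in WT and 87.9 to 115 CPM under NACET, so that it rose by 1.15 ± 0.14 on the log2 scale (SE, adjusted p = 0.000131) where Acp1 fell. The other DEGs there were Bcap29, an export factor of the endoplasmic reticulum, which rose by 0.63 ± 0.09 (adjusted p = 0.000346), and Prkar2b, a regulatory subunit of protein kinase A, which fell by 0.88 (SE 0.18, adjusted p = 0.0182, and 0.121 with the covariate). The neighbouring window held Gm4419, 2410018L13Rik and the acyltransferase gene Mboat2, which fell by 0.70 (SE 0.16, adjusted p = 0.0314, and 0.259 with the covariate). The first 10 Mb of chromosome 15 held as high a share, 3 DEGs of 31 genes (9.68%): the ubiquitin ligase subunit Fbxo4, which fell by 0.60 (SE 0.15, adjusted p = 0.0422, and 0.26 with the covariate), its neighbour Gm2093, which rose by 1.69 ± 0.37 (adjusted p = 0.0232, and 0.0642 with the covariate), and the cytokine receptor gene Osmr. Fbxo4 was called in 7 of 18 alternatives and Gm2093 in 9 of 17, so the share of this window rests on calls that depend on the fit.

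Genes known to differ between substrains of C57BL/6 mice were listed apart, because the largest changes were few and nearly on or off. Of 6 such genes tested, Wdfy1 was upregulated and Entpd4, a lysosomal nucleotidase, was downregulated by 0.39 (SE 0.09, adjusted p = 0.033, but 0.266 with the covariate, and called in 8 of 18 alternatives), with 112, 112 and 107 CPM in WT and 72.8 to 98.7 CPM under NACET. Nnt, the transhydrogenase that supplies mitochondria with NADPH and is defective in C57BL/6J, had a mean of 12.2 CPM in WT and 19.7 CPM in WT + NACET, a log2 fold change of 0.70 that missed the threshold (adjusted p = 0.055). DESeq2 called Nnt (adjusted p = 0.00699). Crb1, a polarity protein of the retina, had a log2 fold change of 0.51 that edgeR did not call (adjusted p = 0.104) and DESeq2 did (adjusted p = 0.041). Neither tool called Ide or Cyfip2. Of the 6 genes, 5 did not overlap between the groups and 5 had an unadjusted p below 0.05, beside 11.5% and 19.5% of all genes. The list was chosen with earlier results of these data known, and it holds Wdfy1, one of the largest increases. Gabra2, a GABA-A receptor subunit known to be reduced in C57BL/6J by an intronic deletion, is not one of the 6. It was taken from the list of GABA and glycine signalling because it was a DEG there. Gabra2 had 11.4, 7.59 and 7.83 CPM in WT and 16.2 to 22.6 CPM under NACET, and rose by 1.10 ± 0.21 (adjusted p = 0.0122, and 0.0642 with the covariate). The labels give one strain for both groups, and a difference in breeding stock and the treatment cannot be told apart with these libraries.

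Few redox genes passed the test. The NRF2 gene Nfe2l2 had 26.5, 27.0 and 24.99 CPM in WT and 27.1 to 32.5 CPM under NACET. All treated libraries were above WT, by a log2 fold change of 0.20 ± 0.11 (SE) that was not called (adjusted p = 0.317). Keap1, its repressor, had a log2 fold change of 0.07 (adjusted p = 0.70). None of 9 regulators of NRF2, among them the small MAF genes and Bach1, was called by edgeR or by DESeq2, with 2 at an unadjusted p below 0.05, and their median log2 fold change was 0.07 beside −0.01 for all genes. The small MAF genes Maff and Mafg had log2 fold changes of −0.71 (adjusted p = 0.216) and −0.45 (adjusted p = 0.192).

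Of 34 NRF2 target genes tested, 1 was upregulated and none downregulated, 25 had a positive fold change, and the median was 0.15. DESeq2 called 2 of them, and 5 had an unadjusted edgeR p below 0.05, a smaller share than the 19.5% of all genes. The one DEG was Cat, catalase, which breaks down hydrogen peroxide (chromosome 2, 103294006 to 103325317). It had 32.7, 31.3 and 29.6 CPM in WT and 42.1 to 47.6 CPM under NACET, median 45.9, with no overlap between the groups. Cat rose by 0.54 ± 0.10 (SE, adjusted p = 0.00482), was called in all 18 alternative fits, and kept an adjusted p of 0.043 without WT + NACET replicates 3, 5 and 6. In the Akita groups it lay between 27.1 and 36.2 CPM whether or not NACET was given. Nqo1, the quinone reductase used as a readout of NRF2, had 6.53, 8.15 and 5.18 CPM in WT and 7.36 to 11.8 CPM under NACET (log2 fold change 0.52 ± 0.25, adjusted p = 0.256), so the groups overlapped. Hmox1, heme oxygenase, had 3.52, 3.36 and 3.31 CPM in WT and 3.29 to 7.55 CPM under NACET (0.38 ± 0.26 on the log2 scale, adjusted p = 0.43), and its highest library was replicate 5, which also held lens transcripts. The glutathione synthesis genes Gclc and Gclm, with log2 fold changes of −0.03 and 0.06, and the cystine importer Slc7a11, with 0.84 (adjusted p = 0.62), were not called.

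Promoters of the NRF2 targets were searched for the core of the antioxidant response element, TGACNNNGC on either strand, in the 300-base window from 250 bases before to 50 after the gene start (RefSeq, build GRCm38.p6). A match was found in 10 of 28 targets with a promoter sequence (35.7%) and in 3781 of 27025 genes (14.0%). The median log2 fold change was 0.11 for the targets with a match and 0.27 for those without. Catalase had none in this window. Of the 10 targets with a match, Abcc4, Mgst1, Pgd, Ugdh and G6pdx are not shown and none was called. Their log2 fold changes were 1.11, the highest of the target list, 0.33, 0.16, −0.12 and −0.04. The matches of the other 5 are shown with 10 bases on each side and the core in capitals. They read 5′ to 3′ on the strand of the match.
Prdx1: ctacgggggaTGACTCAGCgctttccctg
Me1: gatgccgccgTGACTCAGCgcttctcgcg
Gclm: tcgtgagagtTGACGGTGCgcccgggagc
Txnrd1: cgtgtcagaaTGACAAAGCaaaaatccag
Srxn1: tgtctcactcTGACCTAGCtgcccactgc
The core of Prdx1 lies at chr4:116685466-116685474, that of Me1 at chr9:86695912-86695920, that of Gclm at chr3:122245423-122245431, that of Txnrd1 at chr10:82859114-82859122 and that of Srxn1 at chr2:152105552-152105560. Prdx1 and Me1, a peroxiredoxin and the NADPH-producing malic enzyme, hold the same 9 letters. None of the 5 genes was called: the log2 fold changes were 0.19 ± 0.10 (SE, adjusted p = 0.308) for Prdx1, 0.15 ± 0.16 for Me1, 0.06 ± 0.11 for Gclm, 0.05 ± 0.10 for the thioredoxin reductase Txnrd1 and −0.01 ± 0.09 for the sulfiredoxin Srxn1.

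No gene of cysteine and glutathione metabolism passed the test among 32, by edgeR, while 5 had an unadjusted p below 0.05, again a smaller share than the 19.5% of all genes, and DESeq2 called 1. Their fold changes were positive in 25 and the median was 0.18. The glutaredoxin genes led the list: Glrx2, of mitochondria, had 105, 99.5 and 120 CPM in WT and 126 to 147 CPM under NACET (log2 fold change 0.32 ± 0.09, adjusted p = 0.0576), and Glrx had 0.29 ± 0.10 (adjusted p = 0.124). Acy1, the acylase that removes the acetyl group from N-acetylcysteine, had 12.2, 13.3 and 11.4 CPM in WT and 9.50 to 15.3 CPM under NACET, with full overlap. Of 23 thioredoxins, peroxiredoxins, metallothioneins and superoxide dismutases, 19 were positive and the median was 0.12. Among the 23, 8 had an unadjusted p below 0.05, a larger share than the 19.5% of all genes. DESeq2 called 3 as higher and 1 as lower, while edgeR called 1, which was upregulated. This was Nxnl1, the source of the rod-derived cone viability factor, a thioredoxin-like protein of photoreceptors. It rose by 0.55 ± 0.13 (SE, adjusted p = 0.0326) from 281, 294 and 335 CPM to 409 to 514 CPM, but not with the covariate (adjusted p = 0.246), under which the median of the list was −0.03.

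Stress genes of the endoplasmic reticulum and cytosol held 1 DEG. Of 28 genes of the unfolded protein response, 14 were higher and 14 lower, and Dnajb11, a chaperone partner of BiP, was upregulated by 0.31 ± 0.07 (SE, adjusted p = 0.039, and 0.249 with the covariate). Among the 28, 10 had an unadjusted p below 0.05, a larger share than the 19.5% of all genes, and DESeq2 called 3 as higher. None of 15 cytosolic heat shock genes was called by edgeR, and DESeq2 called 2 as lower. An unadjusted p below 0.05 was found for 4, also a larger share than that of all genes. Hspa1b had 3.73, 6.08 and 6.56 CPM in WT and 2.33 to 3.92 CPM under NACET (log2 fold change −0.79, adjusted p = 0.076). Cryab, at 3.28 the highest value of the list, is also a lens crystallin and was not called (adjusted p = 0.27).

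**Figure D3:**
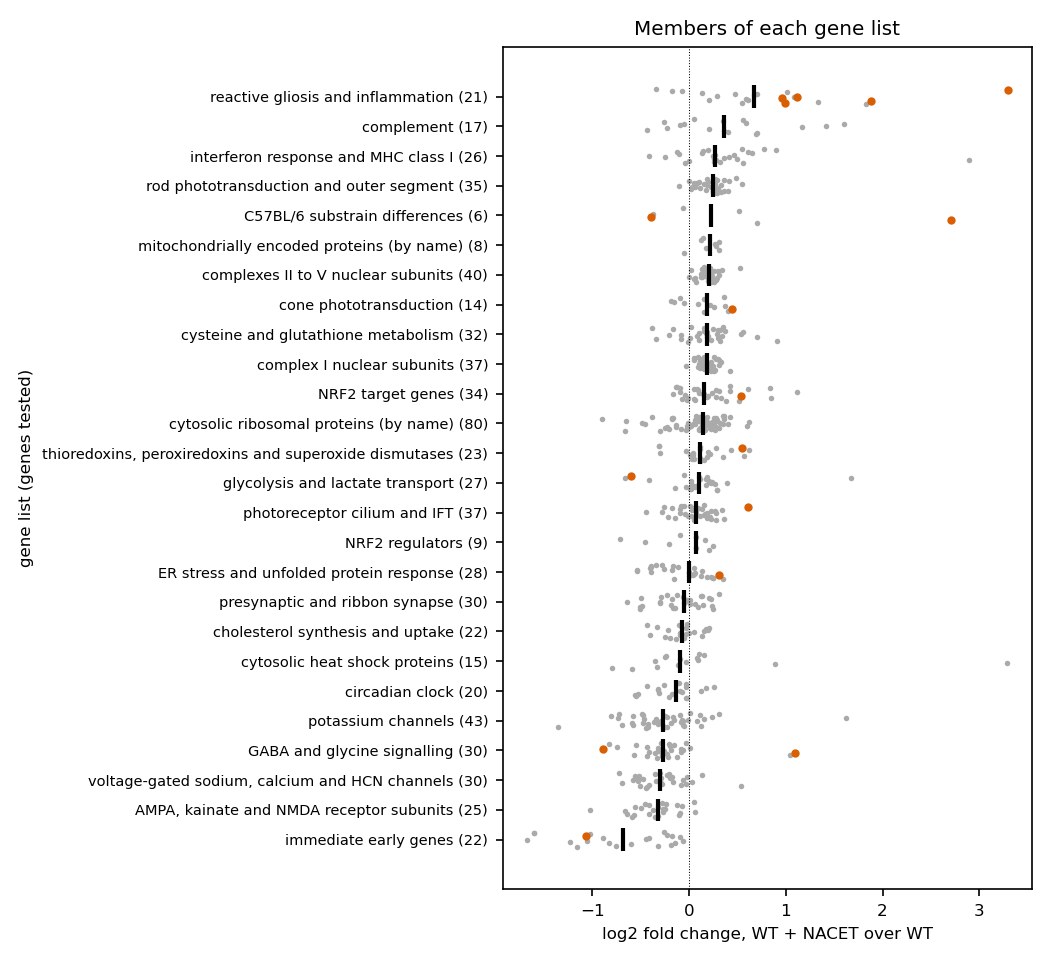
Log2 fold changes of WT + NACET over WT (horizontal axis) for the tested members of each gene list, ordered by the list median, which is drawn as a black bar. Orange points are DEGs and grey points were not called, and the gliosis list lies highest with a median of 0.67 and the immediate early genes lowest with −0.68.

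Gliosis and inflammation genes made up the list with the most DEGs. Of 21 tested, 5 were upregulated and none downregulated, beside 1.48% DEGs among all genes. The fold change was positive in 18, with a median of 0.67 on the log2 scale. An unadjusted p below 0.05 was found for 10 and DESeq2 called 6, beside 19.5% and 4.60% of all genes. Bcl3 is described above. Edn2, endothelin 2, which stressed photoreceptors release (chromosome 4, 119833811 to 119839965), had 6.97, 5.28 and 3.49 CPM in WT and 9.99 to 41.9 CPM in WT + NACET, median 13.8. The groups did not overlap although the treated libraries varied widely, replicate 2 being the highest, and Edn2 rose by 1.88 ± 0.42 (SE, adjusted p = 0.0313). Cebpd, a transcription factor of the acute phase (chromosome 16, 15887379 to 15888559), rose by 0.96 ± 0.22 (adjusted p = 0.0306, and 0.152 with the covariate), from 11.7, 14.1 and 10.96 CPM to 15.8 to 31.2 CPM. Lcn2, the iron-scavenging lipocalin of reactive astrocytes (chromosome 2, 32240153 to 32243317), had 3.02, 5.36 and 4.70 CPM in WT and 5.22 to 10.8 CPM under NACET, so that the lowest treated library, replicate 4, fell below the highest WT library. It rose by 0.99 ± 0.23 (adjusted p = 0.035, and 0.212 with the covariate). Osmr, the oncostatin M receptor (chromosome 15, 6763577 to 6824313), had 6.25, 10.1 and 5.84 CPM in WT and 10.04 to 22.5 CPM under NACET, so the lowest treated library touched the highest WT library. Osmr rose by 1.12 ± 0.27 (adjusted p = 0.0403).

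Gfap itself (chromosome 11, 102748650 to 102762226) had 78.6, 33.0 and 50.6 CPM in WT and 129, 198, 169, 169, 219 and 269 CPM in WT + NACET. Every treated library exceeded every WT library, and the mean went from 54.1 ± 23.001 (SD, n = 3) to 192 ± 48.7 (SD, n = 6), yet its log2 fold change of 1.83 ± 0.44 (SE) had an adjusted p of 0.0539 and was not called. It was called in 4 of 18 alternatives. Vim, Cd44, Serpina3n and A2m, further genes of reactive glia, had log2 fold changes of 0.55 to 1.33 and were not called. Vim had 301 to 411 reads in WT and 305 to 1298 reads in WT + NACET, so the groups overlapped. With the covariate 3 of the 21 genes were called, without WT + NACET replicate 5 4 of them, and without replicates 3, 5 and 6 only Bcl3 (adjusted p = 0.0163). The medians of the list were then 0.69 with the covariate and 0.64 without the 3 libraries. The 5 astrocyte markers, which include Gfap, summed to 70.5 to 125 CPM in WT and 166 to 331 CPM in WT + NACET, and 4 of the 6 treated libraries exceeded every WT library in the pigment epithelium sum. The part of these cells in the list was not tested.

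Complement and interferon genes had no DEG by edgeR. Of 17 complement genes 12 were positive, with a median of 0.36. C4b had 7.61, 11.4 and 3.25 CPM in WT and 9.25 to 26.3 CPM under NACET (log2 fold change 1.41 ± 0.38, adjusted p = 0.0643), and the groups overlapped. DESeq2 called 3 complement genes, and 7 had an unadjusted edgeR p below 0.05, a larger share than the 19.5% of all genes. Of 26 interferon response and MHC class I genes 20 were positive, with a median of 0.27, and DESeq2 called 1. Among the 26, 9 had an unadjusted p below 0.05, also a larger share than that of all genes. Bst2, tetherin, had 2.58, 3.92 and 3.19 CPM in WT and 4.26 to 7.22 CPM under NACET (0.89 ± 0.23, adjusted p = 0.0539). Il1b and Il6, cytokines of neuroinflammation, had 0 to 5 reads in any of the 9 libraries and did not enter the test. The 10 microglia and macrophage markers summed to 75.4 to 102 CPM in WT and 93.0 to 132 CPM in WT + NACET and none was called, with 2 at an unadjusted p below 0.05 and none called by DESeq2. In whole retina, more cells of a type and more RNA per cell cannot be told apart.

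Immediate early genes, which neurons and glia induce within minutes of a stimulus, had negative fold changes in all 22 tested. Their median log2 fold change was −0.68, and 13 did not overlap between the groups, all lower under NACET, beside 11.5% of all genes in either direction. An unadjusted p below 0.05 was found for 9, a larger share than the 19.5% of all genes, and DESeq2 called 3 as lower. EdgeR called 1. Dusp1, a phosphatase that switches off MAP kinases (chromosome 17, 26642535 to 26645464), had 68.3, 56.0 and 50.2 CPM in WT and 21.2 to 34.6 CPM under NACET, median 27.6. It fell by 1.07 (SE 0.17, adjusted p = 0.0023) and was called in all 18 alternatives, while the Akita libraries held 39.6 to 65.4 CPM with or without NACET. The others varied more between libraries. The orphan receptor gene Nr4a1 went from a mean of 26.7 to 8.31 CPM (log2 fold change −1.68, adjusted p = 0.063), and Fos, a subunit of AP-1, from 39.3 to 17.5 CPM (−1.16, adjusted p = 0.15). Jun had −0.19 (adjusted p = 0.37). These transcripts respond quickly to handling and time of day, neither of which the labels give. Of 20 circadian clock genes none was called by edgeR, 17 were lower and DESeq2 called 1. Among the 20, 7 had an unadjusted p below 0.05, also a larger share than that of all genes. Cry2, a repressor of the clock, had 135, 139 and 120 CPM in WT and 96.2 to 114 CPM under NACET (−0.32 ± 0.08, adjusted p = 0.0573).

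**Figure D4:**
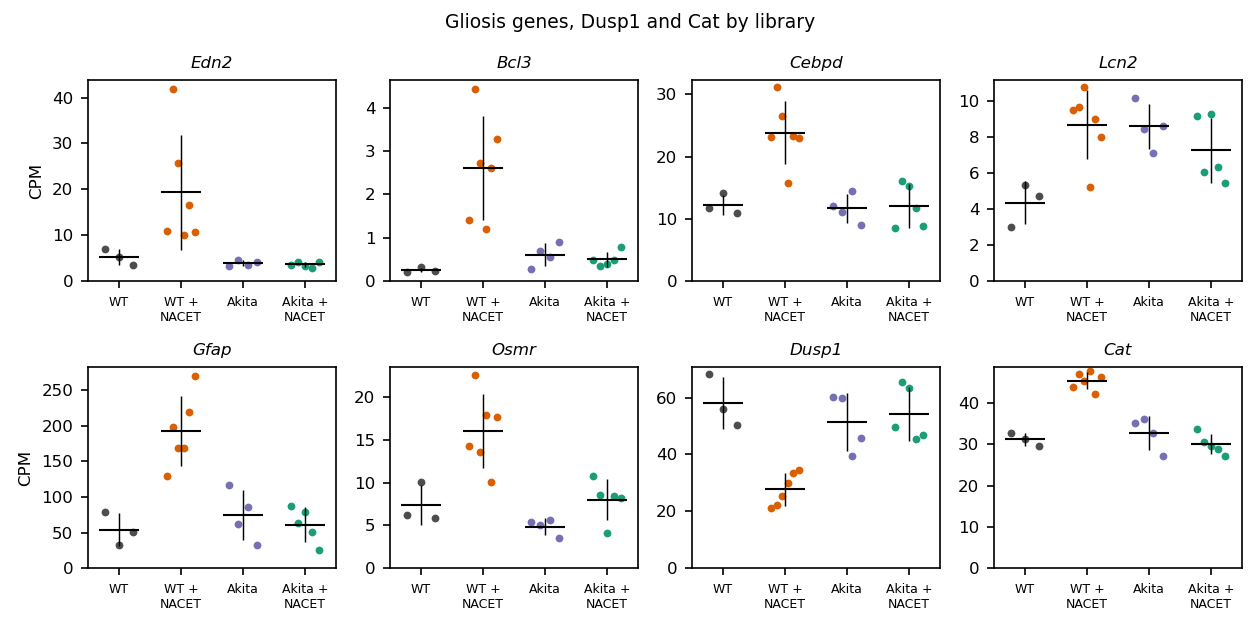
Levels in CPM (vertical axes, linear from 0) of the gliosis genes Edn2, Bcl3, Cebpd, Lcn2, Gfap and Osmr, of Dusp1 and of Cat in each library of the 4 groups, with the mean as a horizontal and the SD as a vertical line. Gfap lies at 129 to 269 CPM in WT + NACET against 33.0 to 78.6 CPM in WT, and Dusp1 lies lower in all 6 treated libraries than in any WT library.

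Photoreceptor genes had mostly small positive fold changes. Of 35 genes of rod phototransduction and the outer segment 33 had a positive fold change, with a median of 0.25, but none was called by edgeR, 8 had an unadjusted p below 0.05 and DESeq2 called 1. Impg2, a proteoglycan around the photoreceptors, had 283, 256 and 348 CPM in WT and 358 to 461 CPM under NACET (0.48 ± 0.13, adjusted p = 0.0671). Nrl, the rod-determining factor, had a log2 fold change of 0.41 (adjusted p = 0.131). With the covariate the median of the rod list was 0.10. Of 14 cone genes 6 had an unadjusted p below 0.05, a larger share than the 19.5% of all genes. DESeq2 called 2 of the 14 as higher and edgeR called 1. This was Gnb3, the beta subunit of the cone transducin, which rose by 0.44 ± 0.11 (SE, adjusted p = 0.0406). It went from 388, 420 and 442 CPM to 513 to 615 CPM, with an adjusted p of 0.0797 with the covariate.

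The fold changes of energy metabolism genes differed with the covariate. Of 37 nuclear subunits of complex I 36 were positive, with a median of 0.18, and all 40 nuclear subunits of complexes II to V were positive, with a median of 0.20. None of these 77 genes was called by edgeR or by DESeq2. An unadjusted p below 0.05 was found for 13 and 12 of them, larger shares than the 19.5% of all genes. With the covariate both medians were 0.00 after rounding and the positive members numbered 18 and 20. The 80 cytosolic ribosomal protein genes, none called by edgeR or DESeq2 and 10 with an unadjusted p below 0.05, went from a median of 0.15 to −0.07 in the same way. Of 27 genes of glycolysis and lactate transport 1 was downregulated. Pfkfb3, the enzyme that raises the glycolytic activator fructose-2,6-bisphosphate, fell by 0.60 (SE 0.13, adjusted p = 0.0208), from 34.6, 41.0 and 31.7 CPM to 21.2 to 28.2 CPM, but not with the covariate (adjusted p = 0.238). Of 22 cholesterol genes 16 were lower, the median was −0.07, and none was called by edgeR or DESeq2, with 4 at an unadjusted p below 0.05.

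Genes of synapses and excitability had mostly small negative fold changes. Of 25 glutamate receptor genes 23 were negative with a median of −0.32, none was called by edgeR and DESeq2 called 2. Among the 25, 8 had an unadjusted p below 0.05, a larger share than the 19.5% of all genes. Gria2, an AMPA receptor subunit, had 107, 89.5 and 85.4 CPM in WT and 47.3 to 81.1 CPM under NACET (−0.59 ± 0.15, adjusted p = 0.0539). Of 30 genes of GABA and glycine signalling 27 were negative with a median of −0.27. Among the 30, 10 had an unadjusted p below 0.05, also a larger share, and DESeq2 called 1 as higher and 2 as lower. Besides Gabra2, Gabrg3, another GABA-A receptor subunit, was called and fell by 0.89 (SE 0.18, adjusted p = 0.0131), from 10.6, 9.03 and 7.17 CPM to 3.56 to 5.85 CPM (adjusted p = 0.156 with the covariate). Of 43 potassium channel genes 35 were negative (median −0.27) and of 30 sodium, calcium and HCN channel genes 27 (median −0.30). Neither list had a DEG by edgeR, and DESeq2 called 3 and 2 of their members. An unadjusted p below 0.05 was found for 15 and 10, again larger shares than that of all genes. With the covariate the medians of these 4 lists were −0.11, −0.13, −0.16 and −0.15. The 30 presynaptic genes had a median of −0.06, with none called by either tool and 7 at an unadjusted p below 0.05.

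The 17 marker lists of retinal and neighbouring cell types held no DEG by edgeR, while 22 of their 135 tested members had an unadjusted p below 0.05, a smaller share than the 19.5% of all genes, and DESeq2 called 4. Rbpms, the pan-marker of retinal ganglion cells that the study also stained, had 65.2, 44.2 and 45.0 CPM in WT and 35.2 to 53.4 CPM under NACET, a log2 fold change of −0.17 ± 0.20 (adjusted p = 0.677). The 12 ganglion cell markers had 10 negative values and no gene with an unadjusted p below 0.05. The 10 bipolar cell markers were all negative with none below it either, and of the 11 Müller glia markers 6 were positive. The 9 amacrine cell markers were all negative, with a median log2 fold change of −0.32 and 3 at an unadjusted p below 0.05. With the covariate that median was −0.24. The part of cell composition in the synaptic lists was not tested. Of the 11 pigment epithelium markers 9 were positive and 3 had an unadjusted p below 0.05.

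The same treatment was finally compared between genotypes. In the fit of all 18 libraries, the effect of NACET in WT minus its effect in Akita was called for 3289 genes (20.3%) and for 225 of the 240 DEGs (93.8%), which share the WT contrast with this test. In Akita, NACET changed 1562 genes (9.65%). Of the 240 DEGs 65 were called there as well, 63 in the opposite direction and 2 in the same direction. The share of reads outside exons also ran in opposite directions, with 9.67% to 13.3% in Akita and 14.3% to 19.8% in Akita + NACET. With it as a covariate the difference between the effects was called for 17 genes, and of 36 named DEGs that differed between genotypes 7 were still called: Acp1, Fn3krp, Glb1l3, Gm9493, Slc6a2, Tmem181b-ps and Wdfy1. For Pfkfb3 the effects were −0.60 in WT and 0.73 in Akita (adjusted p = 0.0152 for the latter), and for Nxnl1 0.55 and −0.60 (adjusted p = 0.0161). For Cat the effect in Akita was −0.13 ± 0.09 (SE, adjusted p = 0.345) and the difference 0.67 (adjusted p = 0.00306), and for Dusp1 they were 0.08 (adjusted p = 0.797) and −1.14 (adjusted p = 0.00514).

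**Figure D5:**
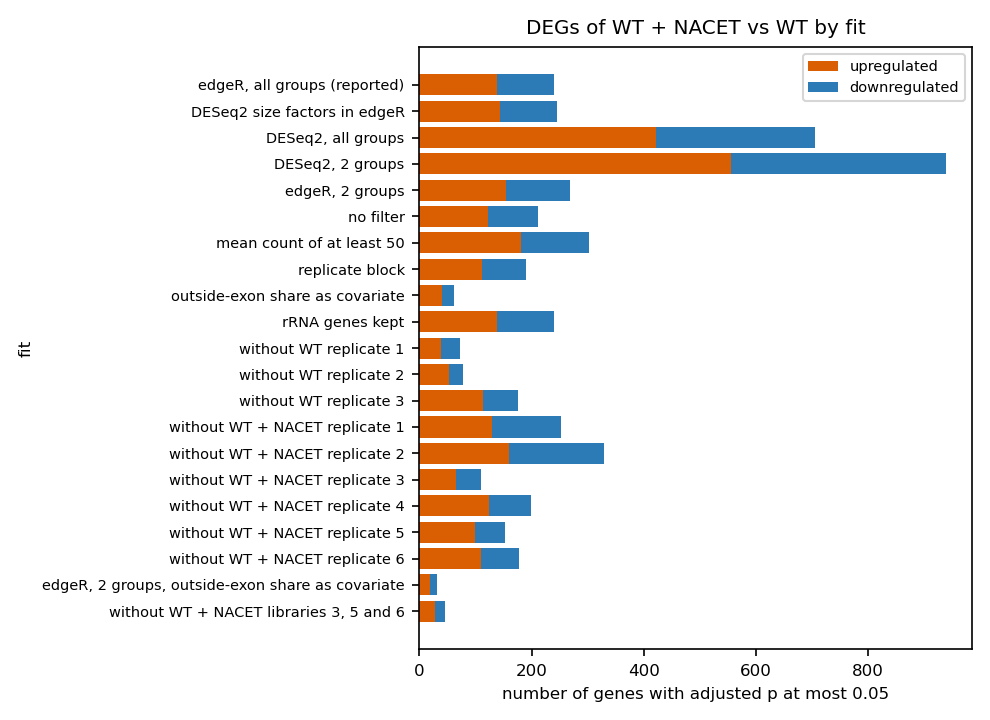
Number of DEGs of WT + NACET vs WT (horizontal axis), upregulated in orange and downregulated in blue, under the reported fit, its 18 alternatives and 2 added later (vertical axis). The counts run from 31 with only the 2 groups and the covariate in edgeR to 938 with only the 2 groups in DESeq2, beside 240 as reported.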

How the data were processed

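Poly(A) RNA of 18 male mouse retina libraries was analysed. Per the study's methods and the labels, the authors prepared unstranded TruSeq libraries, sequenced them single end, aligned reads to mm9 with TopHat2 2.1.0 and counted unique reads over exons with HTSeq 0.11.2. The deposited values are these raw counts, not normalized. Groups followed the labels. Of 35006 gene names, 206 rRNA genes were removed, as was an entry without a gene name (0.00505% to 0.00596% of gene counts). Coordinates are of GENCODE vM1 (mm9), promoters of RefSeq.

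The main test was edgeR 4.0.16 in R 4.3.3 (TMM, filterByExpr with a minimum count of 10 and total of 15, robust quasi-likelihood F test) over all 4 groups, contrast WT + NACET minus WT, Benjamini-Hochberg over 16183 genes, DEGs at an adjusted p of at most 0.05. SE came from the F statistic, and CPM used effective library sizes. On simulated data of 16009 genes the test recovered 91 of 100 genes changed 3-fold and 39 of 100 changed 1.5-fold, with 8 false calls. The counts were drawn independently for each gene, with no shift shared across genes such as the outside-exon share. The simulation therefore does not give the number of false calls in these libraries. Alternatives included DESeq2 1.42.0, other filters, a covariate and leaving out each library.

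Named genes were the 10 largest increases and decreases among DEGs of at least 1 CPM without overlap, the leading members of each list, genes the study measured, and DEGs of the 3 densest 10 Mb windows. Members, lists and tests were chosen with earlier results of these data known. Some genes that met the rule are not reported here.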

Additional observations from a re-analysis of the deposited data

Results flagged for a closer look

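In 117 sets of 6 WT + NACET values, 11 had 1 library far from the other 5 by Dixon's criterion, where chance gives about 1 in 20. WT + NACET replicate 3 was highest for Glb1l3 (39.8 CPM), Rec8 (1.29 CPM), Sh3yl1 (114.8 CPM) and the glycolysis list (20789 CPM summed). Replicate 5 was highest for Hmox1 (7.55 CPM), the lens list (26102 CPM) and the heat shock list (4859 CPM), which includes the lens crystallin Cryab. Replicate 6 was highest for Keap1 (57.9 CPM) and the mitochondrially encoded genes (18998 CPM), replicate 2 for Lss of cholesterol synthesis (54.6 CPM), and replicate 1 was lowest for the cholesterol list (1051 CPM).

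For 36 of 39 named DEGs the effect of NACET on the log2 scale differed between WT and Akita (edgeR, adjusted p of at most 0.05, WT minus Akita). The DEGs were selected on the WT contrast, which is part of this test, so their selection favours a call. With the outside-exon share as covariate 7 of the 36 were still called. Among genes that rose in WT, the difference was 4.27 for Slc6a2, 3.58 for Bcl3, 3.09 for Fn3krp, 2.85 for Gm10475, 2.71 for Steap4, 2.58 for NR_045365, 2.53 for Wdfy1, 2.44 for Gm4419, 1.99 for Edn2, 1.90 for Xlr3a, 1.65 for Sh3yl1, 1.602 for Gm2093, 1.33 for Xlr3b, 1.24 for Lcn2, 1.15 for Nxnl1, 0.91 for Cebpd, 0.77 for Bcap29, 0.67 for Cat, 0.53 for Gnb3 and 0.52 for Dnajb11. Among those that fell it was −4.64 for Rec8, −3.96 for Tmem181b-ps, −3.57 for Acp1, −3.22 for Gm9493, −3.09 for 2410018L13Rik, −2.28 for Slc7a3, −1.95 for Adm, −1.72 for 1700027L20Rik, −1.65 for Prkar2b, −1.35 for Gabrg3, −1.33 for Pfkfb3, −1.26 for Glb1l3, −1.14 for Dusp1, −0.84 for Mboat2, −0.83 for Fbxo4 and −0.44 for Entpd4.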

How the results depend on the processing

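The 240 DEGs (139 upregulated, 101 downregulated) became 705 (421 and 284) with DESeq2 on all groups, 938 (555 and 383) with DESeq2 on 2 groups and 61 (40 and 21) when the outside-exon share entered the fit. Leaving out 1 library gave 72 to 329 DEGs, 39 to 159 of them upregulated and 24 to 170 downregulated. Of alternatives chosen after seeing the data, edgeR on 2 groups with the covariate gave 31 (19 and 12), and leaving out WT + NACET replicates 3, 5 and 6 gave 45 (28 and 17). The cause of these shifts was not tested. Replicate numbers are shared by the groups. The deviations of same-numbered WT and WT + NACET libraries from their group means had r of −0.33, −0.19 and 0.34. Libraries of unlike number had r of −0.45 to 0.39. So few pairs cannot show whether the numbers mark anything shared. With the replicate block there were 190 DEGs (111 and 79), 135 of them DEGs as reported. DESeq2 size factors, other filters, rRNA genes kept and edgeR on 2 groups stayed within 1.5 times the reported counts. Among named genes, fold changes kept direction and call in 1171 checks, lost the call in 192, gained it in 55 and reversed in 7, all of genes not called: Acy1, at −0.01, was at 0.000983 and 0.00153 with DESeq2 on all and on 2 groups and at −0.085 to 0.052 with 1 library left out, and Rbpms, at −0.17, was at −0.27 to 0.037 with 1 left out. With 3 WT libraries, changes near 1.5-fold were mostly missed in simulation, and genes with a few reads, such as Il1b and Il6, cannot be judged at this depth.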

Other observations

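Further DEGs were picked after their values were seen. Dynlt1b, a dynein light chain gene 4185 bases from Tmem181b-ps on chromosome 17, had 10, 12 and 14 reads in WT and 0 in all 6 WT + NACET libraries, at least 25.9-fold lower against a floor of 3 reads over these libraries, and its close paralogs make the level uncertain. Ntsr2, a neurotensin receptor gene of chromosome 12, had 0 to 0.215 CPM in WT and 0.772 to 1.31 CPM under NACET, an adjusted p of 0.00292. Mc1r, the melanocortin receptor, rose by 1.58 ± 0.21 (SE, edgeR adjusted p = 0.000281), and Tyro3, a receptor kinase of outer segment phagocytosis, by 0.91 ± 0.15 (adjusted p = 0.00323). Csrp3, a LIM domain protein, fell by 1.32 (SE 0.14, adjusted p = 1.56e-05), from 11.7, 14.6 and 15.4 CPM to 4.87 to 6.75 CPM, and Gsc2, a homeobox factor, by 1.38 (SE 0.20, adjusted p = 0.000592).

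Dnaic2, an intermediate chain of axonemal dynein, had 3.16, 3.04 and 2.65 CPM in WT and 7.02 to 9.94 CPM under NACET and rose by 1.53 ± 0.21 (adjusted p = 0.000306). Efcab7, of the Hedgehog complex at the ciliary base, rose by 1.66 ± 0.20 (adjusted p = 5.82e-05), Ubxn10 by 0.90 ± 0.15 (adjusted p = 0.00323), Spef1 by 0.86 ± 0.17 (adjusted p = 0.0158) and the retrograde dynein chain Dync2li1 by 0.60 ± 0.13 (adjusted p = 0.0274). Dnaic2, Efcab7 and Ubxn10 kept their calls in all 18 alternative fits, while Spef1 and Dync2li1 lost theirs with the outside-exon share as covariate (adjusted p = 0.0816 and 0.261). The list of photoreceptor cilium and intraflagellar transport genes holds none of these genes. Of its 37 members 25 were positive and 12 negative, with a median of 0.07. EdgeR called 1, which was upregulated, and none with the covariate. DESeq2 called 2, and 9 had an unadjusted edgeR p below 0.05, beside 4.60% and 19.5% of all genes. Mcm2, a subunit of the replicative helicase, had 11.2, 12.4 and 11.9 CPM in WT and 16.5 to 20.2 CPM under NACET and rose by 0.62 ± 0.12 (adjusted p = 0.00866), Mcm3 by 1.14 ± 0.24 (adjusted p = 0.0178) and the checkpoint gene Mad2l1 by 0.55 ± 0.12 (adjusted p = 0.0241), the last pair not with the covariate (adjusted p = 0.113 and 0.177).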
